A study of Mus musculus with 6 samples.

Results

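Type I interferon-stimulated antiviral genes are described here in the livers of male mice of the inbred strain C57BL/6J on a high-fat diet. The 31 genes were chosen by symbol, and all 31 were found among the 22851 genes of the deposited matrix. Vehicle was given to one group (3 libraries, numbered 1, 2 and 4). The other (3 libraries, numbered 1, 3 and 4) was given ONX-0914, which blocks PSMB8, a catalytic subunit of the immunoproteasome, subcutaneously for 6 weeks, with 10 mg/kg on alternate days. Both groups ate the high-fat diet, so no lean liver serves as a reference, and no age is given in the labels. The design text gives 2 animals per group against 3 libraries per group, and it is not stated which libraries are separate animals, so p-values measure only the spread between these libraries.

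Type I interferons bind a receptor made of IFNAR1 and IFNAR2, whose kinases JAK1 and TYK2 phosphorylate STAT2. STAT2 and IRF9 belong to the complex ISGF3, which binds the interferon-stimulated response element upstream of antiviral genes. The products sense viral RNA (RIG-I and MDA5), bind it or trigger its cleavage (the IFIT and OAS families), modify proteins (ISG15) or hold virions at the membrane (BST2), and in liver they are made by hepatocytes as well as by Kupffer and sinusoidal endothelial cells. The immunoproteasome subunits are themselves induced by interferons.

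The sequences upstream of 6 of the genes are shown because they carry, or lack, the letters of the interferon-stimulated response element. RefSeq (GRCm38.p6) start-site windows were matched for 23 of the 31 genes by symbol. The core of the interferon-stimulated response element was searched as GAAA, any 2 bases and GAAA on both strands, overlapping matches included, in the 250 bases before the start. It was found for 11 of the 23 genes (Stat2, Isg15, Ifit1, Ifit3, Ifit3b, Oas1a, Oas1g, Oas3, Rsad2, Bst2 and Trim30a). Counted by window, 11 of the 27 windows of these 23 genes held it, whereas 2.98% of all 32851 windows did. The gamma-activated site, searched as TTC, any 3 bases and GAA on both strands, was found for 4 of the 23 genes (Irf1, Ifit2, Oas1a and Bst2). It was in 4 of their 27 windows and in 7.02% of all windows. Capitals mark the response element core, or its reverse complement where the match is on the other strand, and each sequence is written 5′ to 3′ on the strand of its gene and ends at the base before the RefSeq start. Bst2 (chr8:71537473-71537722, minus strand) and Isg15 (chr4:156200819-156201068, minus strand) were higher in every treated library. Irf7 (chr7:141266425-141266674, minus strand) was higher in the rescaled values below. Ifit1 (chr19:34640639-34640888, plus strand), Rsad2 (chr12:26456453-26456702, minus strand) and Trim30a (chr7:104465194-104465443, minus strand) were lower as deposited.
Bst2: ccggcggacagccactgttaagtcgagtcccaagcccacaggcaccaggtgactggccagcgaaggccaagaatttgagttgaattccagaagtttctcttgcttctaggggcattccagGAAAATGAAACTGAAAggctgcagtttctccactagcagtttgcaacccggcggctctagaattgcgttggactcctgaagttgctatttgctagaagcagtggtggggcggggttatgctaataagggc
Isg15: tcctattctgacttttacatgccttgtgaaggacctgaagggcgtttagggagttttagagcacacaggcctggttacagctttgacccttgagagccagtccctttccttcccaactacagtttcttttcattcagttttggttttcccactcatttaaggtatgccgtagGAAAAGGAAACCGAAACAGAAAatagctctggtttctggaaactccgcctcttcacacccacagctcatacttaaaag
Irf7: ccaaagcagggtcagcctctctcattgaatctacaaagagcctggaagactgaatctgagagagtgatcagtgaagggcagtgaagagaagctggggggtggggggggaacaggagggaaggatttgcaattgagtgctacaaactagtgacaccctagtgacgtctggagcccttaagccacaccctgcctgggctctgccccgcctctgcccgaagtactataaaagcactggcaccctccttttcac
Ifit1: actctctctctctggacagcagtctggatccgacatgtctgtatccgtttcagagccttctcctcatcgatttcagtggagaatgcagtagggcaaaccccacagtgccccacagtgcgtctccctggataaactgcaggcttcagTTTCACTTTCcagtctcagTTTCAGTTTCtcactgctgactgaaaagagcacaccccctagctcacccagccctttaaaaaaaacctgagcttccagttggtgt
Rsad2: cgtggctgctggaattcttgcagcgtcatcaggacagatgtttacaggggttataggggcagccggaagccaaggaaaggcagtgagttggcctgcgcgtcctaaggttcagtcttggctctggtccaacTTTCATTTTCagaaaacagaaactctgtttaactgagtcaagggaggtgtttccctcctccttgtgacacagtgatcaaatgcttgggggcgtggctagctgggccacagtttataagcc
Trim30a: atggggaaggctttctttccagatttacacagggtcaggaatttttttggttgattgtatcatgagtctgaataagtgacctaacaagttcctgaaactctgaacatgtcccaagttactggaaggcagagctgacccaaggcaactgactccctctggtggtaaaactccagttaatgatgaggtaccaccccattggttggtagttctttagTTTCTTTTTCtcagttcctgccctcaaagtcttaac
In Isg15 the core matched 3 times in an overlapping run that starts 78, 72 and 66 bases before the start. In Bst2 it matched at 130 and 124 bases, and a gamma-activated site 136 bases before the start overlaps the first of these. Ifit1 held 2 separate matches on the opposite strand, 104 and 85 bases before the start. Rsad2 and Trim30a held 1 each, at 120 and 36 bases, and the Irf7 window held none. Genes with the core were thus found among those that were higher and among those that were lower.

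Depth was read from the low values, since read totals were not given: the steps between them correspond to 14.25, 18.8 and 16.85 x 1e6 counted reads or fragments in vehicle 1, 2 and 4 and to 14.4, 12.6 and 13.45 x 1e6 in ONX-0914 1, 3 and 4. These are estimates that rest on 55 to 96 low values per library and on gene lengths from GENCODE M21. The steps fitted loosely, with a score from 0.44 in vehicle 4 to 0.91 in vehicle 2, where 2 is a perfect fit. The depths and the read counts derived from them are therefore approximate. The median of the 10743 tested genes was lower in treated livers by 0.64 on the log2 scale (-0.64), and the fall was larger for long transcripts. From the shortest to the longest 25% of transcripts the median difference from vehicle moved by -0.95, -0.26 and -0.99 in ONX-0914 1, 3 and 4, and by 0.04, -0.01 and -0.03 in vehicle 1, 2 and 4. ONX-0914 3 thus stood apart from the other treated libraries. Each result is therefore given on 3 scales: as deposited; median-scaled, each library being divided by its median ratio to the genes' geometric means; and length-corrected, each library's smooth trend over transcript length being subtracted. On the last 2 scales the median gene lay at -0.01 and 0.02.

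As deposited, 14 of the 30 tested genes fell with ONX-0914 and 1, Bst2, rose, at a limma adjusted p under 0.05. Over all tested genes 43.5% were called lower and 2.56% higher, so the family's count is close to what the background share gives. On the log2(FPKM + 1) scale, which understates changes of low genes, the deepest falls were those of Trim30a, Ddx58, Parp14 and Lgals3bp. Their log2 fold changes were -1.72, -1.62, -1.58 and -1.38. The order changed with a pseudocount of 0.1, where Trim30a was at -2.45, Rsad2 at -2.43, Ifit2 at -2.42 and Lgals3bp at -1.42. After median scaling 6 fell and 6 rose (14.2% and 13.8% of all genes), and after length correction 3 fell and 4 rose (11.7% and 9.44%). Trim30a, Ddx58 and Lgals3bp fell and Bst2 rose on all 3 scales, and no gene was called in opposite directions. In bulk tissue fewer cells of a type and less RNA per cell cannot be told apart.

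**Figure D1:**
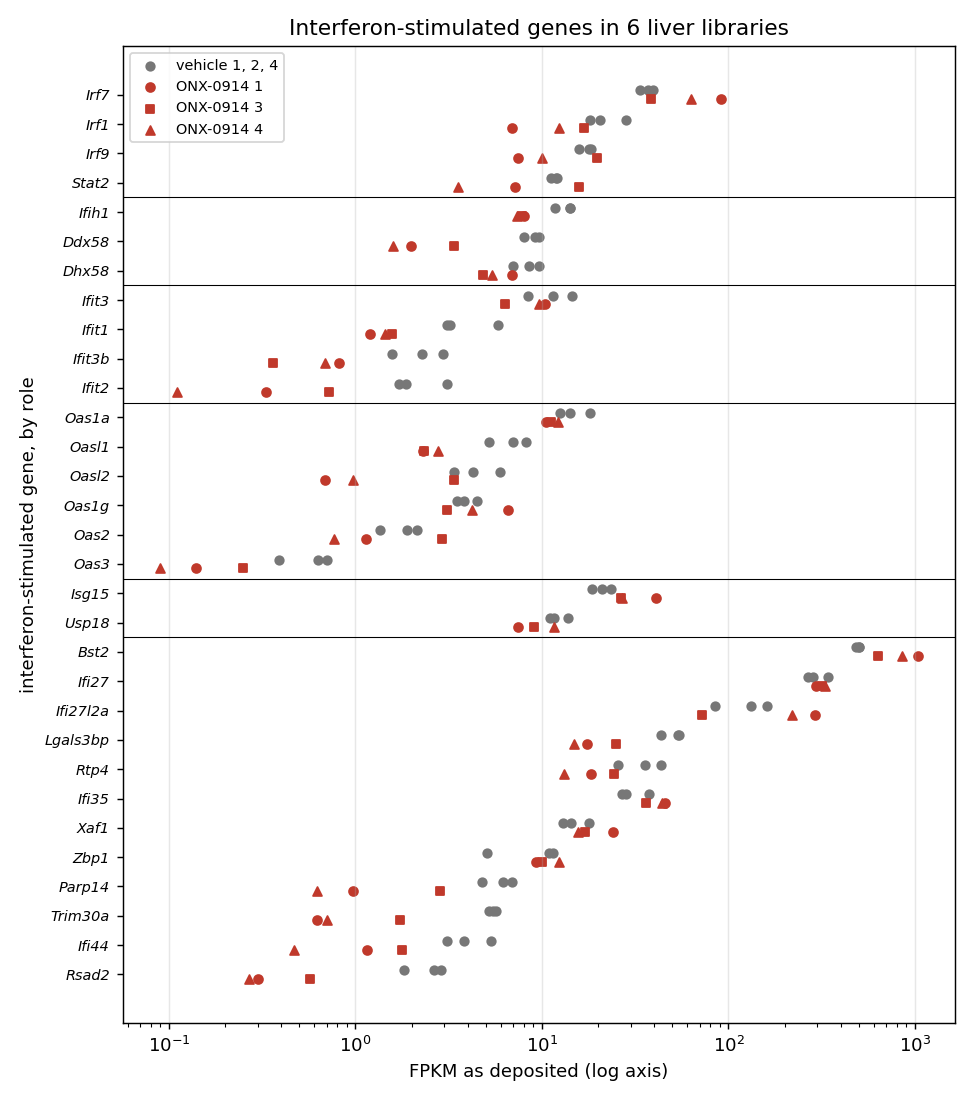
FPKM as deposited (log axis) of all 31 genes in each library, ordered by role, with grey points for vehicle 1, 2 and 4 and red symbols for ONX-0914 1, 3 and 4. Of the 30 tested genes 15 had all treated values below all vehicle values and 2, Isg15 and Bst2, all above, and Oas3, not tested, also lay below.

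Among tested genes 53.5% had all treated values below all vehicle values and 4.93% all above, against 15 and 2 of the 30. The family spanned a wide range of levels per length: Bst2 was highest, at 494 ± 10.3 FPKM with vehicle (SD, n = 3), and Oas3 lowest, at 0.573 ± 0.163 (n = 3). Oas3 did not pass the filter on low values and was not tested. Ifit2, Ifit3b and Rsad2 passed it through the vehicle libraries alone, so for these a fall was built into the choice. Trim30a, Parp14 and Oasl2 had 1 treated library above 1 FPKM, and Ifi44 and Oas2 had 2. Of the tested genes 8 thus had fewer than 3 treated libraries above 1 FPKM. Their treated values by themselves would not have passed the filter, so their choice also leaned towards a fall.

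Of the 4 transcription factors Irf1 fell as deposited, and Irf7 rose on the other 2 scales. Irf7, which amplifies interferon output and is itself interferon-induced, was 33.6, 39.2 and 37.0 FPKM in vehicle 1, 2 and 4, against 90.9, 38.6 and 62.95 in ONX-0914 1, 3 and 4. ONX-0914 1 and 4 lay above every vehicle library and ONX-0914 3 within their range. Its log2 fold change of 0.71 (SE 0.30) did not pass as deposited (limma adjusted p = 0.0743), but did after median scaling (1.496, adjusted p = 0.0271) and after length correction (1.29, adjusted p = 0.0357).

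Stat2 and Irf9, which encode parts of ISGF3, showed a split within the treated group. Stat2 was 11.9, 12.0 and 11.2 FPKM with vehicle and 7.13, 15.7 and 3.55 in ONX-0914 1, 3 and 4. Irf9 was 18.2, 17.8 and 15.8 FPKM with vehicle and 7.45, 19.8 and 9.99 in the same treated libraries. In both genes ONX-0914 3 was the highest of all 6 libraries while ONX-0914 1 and 4 were the lowest, so the groups overlapped and neither gene passed (limma adjusted p = 0.277 and 0.194). Without ONX-0914 3 both passed, at -1.06 (limma adjusted p = 0.0066) and -0.92 (adjusted p = 0.0034).

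Irf1, a factor that interferon gamma also induces, was 28.3, 18.1 and 20.5 FPKM with vehicle and 6.89, 16.7 and 12.3 with ONX-0914. All treated values lay below the vehicle values, and its fall of -0.90 passed as deposited (limma adjusted p = 0.0484). It did not pass after median scaling (-0.15, adjusted p = 0.707) or after length correction (-0.35, adjusted p = 0.384). As deposited it passed without ONX-0914 3, and did not pass without any other library.

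Of the 3 cytosolic RNA sensors, Ddx58, which encodes RIG-I, fell most. Ddx58 spans 40203773 to 40239828 of chromosome 4 (GRCm38). Its levels were 9.21, 9.60 and 8.05 FPKM in vehicle 1, 2 and 4, against 1.98, 3.39 and 1.58 in ONX-0914 1, 3 and 4. Every treated library lay far below the vehicle range, and the log2 change was -1.62 (SE 0.28, limma adjusted p = 0.0032). It was -0.99 after median scaling (adjusted p = 0.0163) and -0.77 after length correction (adjusted p = 0.0214).

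Ifih1, which encodes the sensor MDA5, was 14.2, 14.1 and 11.7 FPKM with vehicle and 8.06, 7.77 and 7.35 with ONX-0914. The treated values were tightly grouped below the vehicle values, with a log2 change of -0.71 (limma adjusted p = 0.0309). Its transcript of 5470 bases is the second longest among the tested genes of the family, and the difference was 0.02 after median scaling and 0.19 after length correction (limma adjusted p = 0.961 and 0.556). Dhx58, which encodes LGP2, a modulator of both sensors, was 8.40 ± 1.36 FPKM with vehicle and 5.71 ± 1.095 with ONX-0914 (n = 3 each) and did not pass on any scale (-0.49, 0.21 and 0.13).

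The IFIT genes encode proteins that bind foreign RNA ends, and the 4 measured here, in the order Ifit2, Ifit3, Ifit3b and Ifit1, lie between 34550694 and 34650009 on chromosome 19 of GRCm38. Ifit1 was 3.21, 5.79 and 3.09 FPKM in vehicle 1, 2 and 4, against 1.19, 1.57 and 1.44 in ONX-0914 1, 3 and 4. Ifit2 was 1.72, 3.11 and 1.86 FPKM with vehicle and 0.33, 0.72 and 0.11 with ONX-0914, where the lowest library corresponds to about 5.8 counted reads. Ifit3 was 11.4, 14.5 and 8.46 FPKM with vehicle and 10.4, 6.32 and 9.64 with ONX-0914. Ifit1 and Ifit2 were thus lower in every treated library, while Ifit3 overlapped between the groups.

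Ifit1, Ifit2 and Ifit3b fell as deposited, with log2 fold changes of -1.03, -1.22 and -0.99 (limma adjusted p = 0.0137, 0.00534 and 0.00912). Ifit3 was at -0.34 (adjusted p = 0.345). Ifit1 did not pass without vehicle 2, its highest library (-0.79, limma adjusted p = 0.0662). After median scaling Ifit2 alone of the 4 passed (-0.87), and after length correction none did, with values of -0.35, -0.38, -0.48 and 0.07 for Ifit1, Ifit2, Ifit3b and Ifit3. Ifit3 and Ifit3b are close paralogs. Of the 100-base windows of the Ifit3b transcript, 27.4% occur unchanged in Ifit3, so their separate values are uncertain.

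The OAS genes encode enzymes that make 2-5A, the activator of RNase L, or inactive relatives of them. Oasl1 was 7.0, 8.18 and 5.21 FPKM in vehicle 1, 2 and 4, against 2.29, 2.33 and 2.76 in ONX-0914 1, 3 and 4. All treated values lay below the vehicle range, and the log2 change was -1.16 (SE 0.26, limma adjusted p = 0.00768). It was -0.51 after median scaling (adjusted p = 0.137) and -0.59 after length correction (adjusted p = 0.0819).

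Oasl2 was 4.29, 5.93 and 3.36 FPKM with vehicle and 0.69, 3.37 and 0.97 with ONX-0914. ONX-0914 3 was within the vehicle range and the other treated libraries were far below it, and the fall of -1.15 passed as deposited (limma adjusted p = 0.0319) but in none of the fits that left out a library other than ONX-0914 3. Oas2, a larger synthetase, was 1.36, 1.89 and 2.13 FPKM with vehicle and 1.14, 2.91 and 0.77 with ONX-0914. It was highest in ONX-0914 3 and lowest in ONX-0914 1 and 4, and it did not pass on any scale (-0.18, 0.28 and 0.68).

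Oas1a was 12.45, 14.1 and 18.1 FPKM with vehicle and 10.53, 11.16 and 12.14 with ONX-0914. The groups did not overlap, though the gap was small, and the difference of -0.36 did not pass (limma adjusted p = 0.234). Oas1g was 3.80, 4.46 and 3.52 FPKM with vehicle and 6.61, 3.11 and 4.24 with ONX-0914, overlapping (0.16). Oas1a and Oas1g are close paralogs, with 38.2% of the 100-base windows of Oas1g found unchanged in Oas1a, so reads could be split between them. Oas3 was 0.39, 0.70 and 0.63 FPKM with vehicle and 0.14, 0.25 and 0.09 with ONX-0914, lower in each treated library.

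Isg15, the ubiquitin-like modifier, was 18.6, 20.9 and 23.4 FPKM in vehicle 1, 2 and 4, against 40.8, 26.6 and 26.8 in ONX-0914 1, 3 and 4. All treated values lay above the vehicle values, ONX-0914 1 most, yet the log2 fold change of 0.54 (SE 0.24) did not pass as deposited (limma adjusted p = 0.0926). It passed after median scaling (1.31, adjusted p = 0.018) and was 0.38 after length correction (adjusted p = 0.191). Usp18, which encodes the protease that removes ISG15 and a brake on the receptor, was 12.2 ± 1.46 FPKM with vehicle and 9.33 ± 2.08 with ONX-0914 (n = 3 each) and did not pass on any scale (-0.36, 0.37 and 0.07).

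**Figure D2:**
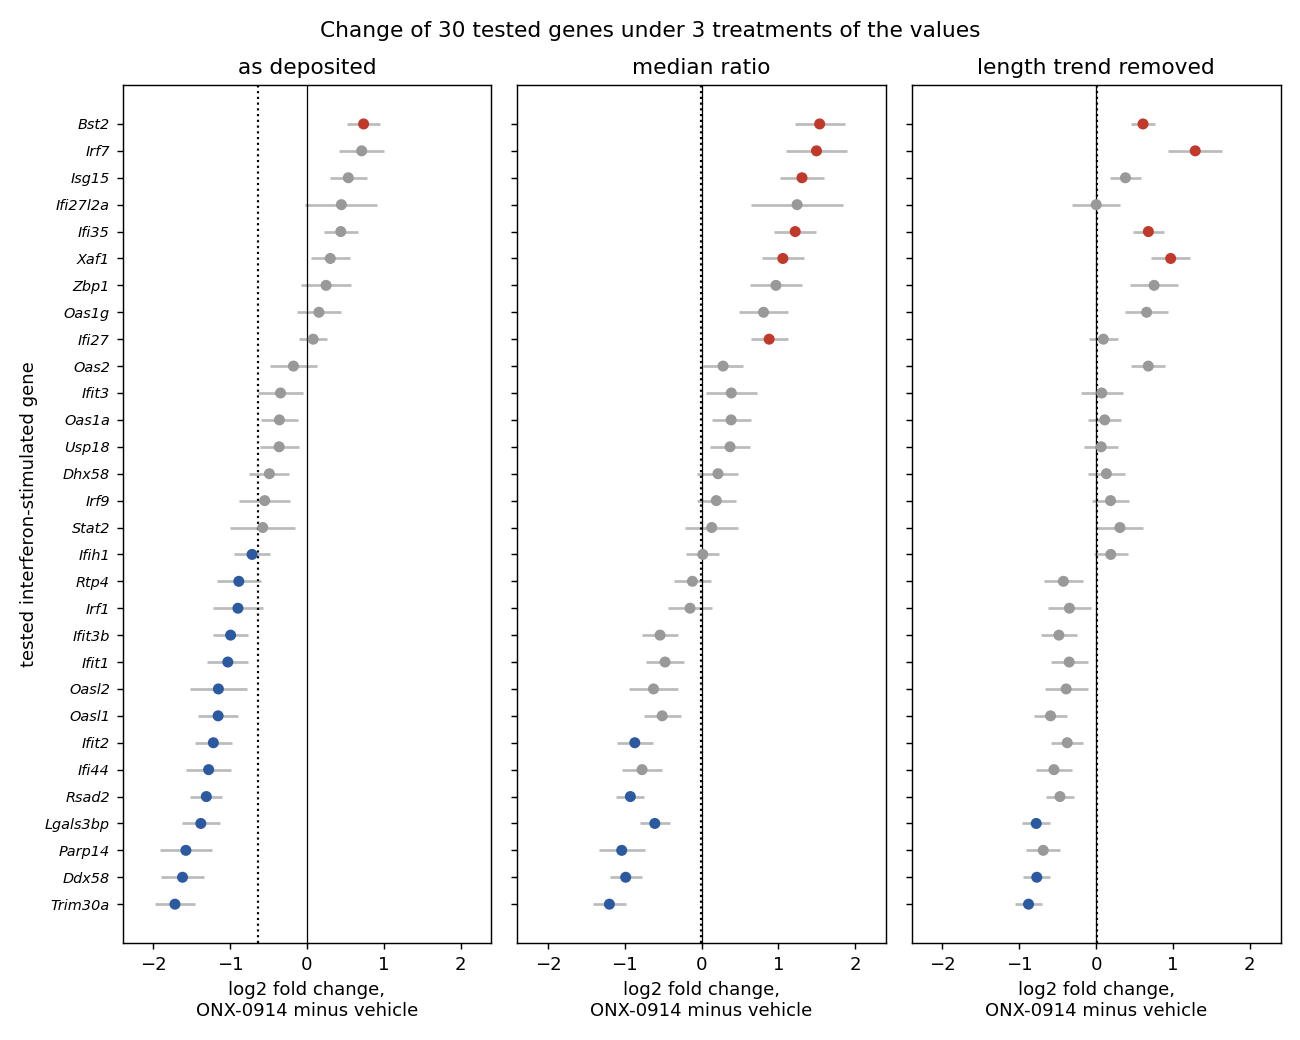
Log2 fold change, ONX-0914 minus vehicle, of the 30 tested genes on the 3 scales (as deposited, median-scaled under "median ratio", length-corrected under "length trend removed"), with bars of 1 standard error from limma (n = 3 libraries per group) and red, blue and grey points for genes called higher, lower and not called; the dotted line is the median of all tested genes, at -0.64, -0.01 and 0.02, and the spread of the genes around it runs from -1.72 to 0.74 as deposited.

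Bst2, which encodes tetherin, a membrane protein that holds budding virions on the cell, was the 1 gene called higher on every scale. Bst2 spans 71534255 to 71537456 of chromosome 8 (GRCm38). Its levels were 482, 499 and 501 FPKM in vehicle 1, 2 and 4, against 1033, 634 and 855 in ONX-0914 1, 3 and 4. The vehicle libraries lay close together and each treated library lay above them. The log2 change was 0.74 (SE 0.22, limma adjusted p = 0.0222), 1.54 after median scaling (adjusted p = 0.0158) and 0.61 after length correction (adjusted p = 0.0311). Leaving out each library in turn, the difference as deposited ranged from 0.57 to 0.93. It passed only without ONX-0914 3 (limma adjusted p = 0.0014), and the adjusted p was 0.059 to 0.0825 without any other library.

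Ifi35 and Xaf1 were called higher on both rescaled values. Ifi35, a modulator of innate signalling, was 26.9, 37.5 and 28.3 FPKM with vehicle and 45.8, 36.2 and 44.2 with ONX-0914, where ONX-0914 3 lay within the vehicle range. Its log2 fold changes were 0.44, 1.22 and 0.68 on the 3 scales (limma adjusted p = 0.126, 0.0192 and 0.0445). Xaf1, a pro-apoptotic antagonist of XIAP, was 14.3, 17.8 and 12.9 FPKM with vehicle and 24.1, 17.0 and 15.7 with ONX-0914, so that ONX-0914 1 alone lay above the vehicle range. Its log2 fold changes were 0.30, 1.06 and 0.97 (limma adjusted p = 0.337, 0.0263 and 0.0319). Leaving out any library but ONX-0914 3 ended the call of Irf7, Ifi35 and Xaf1 on both of these scales and that of Bst2 after length correction.

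Ifi27l2a, a small mitochondrial protein gene of the Ifi27 family with the shortest transcript here at 463 bases, had the widest log2 range over the treated libraries among the 30 tested members. It was 84.7, 132 and 161 FPKM in vehicle 1, 2 and 4, against 289, 72.0 and 220 in ONX-0914 1, 3 and 4. ONX-0914 3 was the lowest of all 6 libraries and ONX-0914 1 and 4 the highest, and the gene did not pass on any scale (0.45, 1.24 and 0.00). Its neighbour Ifi27 was 297 ± 38.1 FPKM with vehicle and 313 ± 18.1 with ONX-0914 (n = 3 each), overlapping, with 0.08 as deposited and 0.09 after length correction. Ifi27 passed after median scaling (0.88, limma adjusted p = 0.0307). Zbp1, a sensor of Z-form nucleic acid that triggers necroptosis, was 5.10, 11.4 and 10.9 FPKM with vehicle and 9.25, 10.0 and 12.4 with ONX-0914 and did not pass on any scale (0.25, 0.97 and 0.75).

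Among effectors that fell, Trim30a, a TRIM protein that restrains TLR signalling in mice, moved most. Trim30a spans 104409025 to 104465193 of chromosome 7 (GRCm38). Its levels were 5.44, 5.69 and 5.21 FPKM in vehicle 1, 2 and 4, against 0.62, 1.73 and 0.70 in ONX-0914 1, 3 and 4. Only 1 treated library was above 1 FPKM, so the gene was tested because of its vehicle values. The treated values lay well below a narrow vehicle range, with a log2 change of -1.72 (SE 0.27, limma adjusted p = 0.00227), -1.20 after median scaling (adjusted p = 0.0112) and -0.88 after length correction (adjusted p = 0.0138). Lgals3bp, a secreted glycoprotein that binds galectins, lies on chromosome 11 from 118392751 to 118402092. It was 54.4, 53.3 and 43.4 FPKM with vehicle and 17.4, 25.1 and 14.8 with ONX-0914, again without overlap. Its transcript of 2330 bases is of middling length, and the log2 fold changes were -1.38, -0.61 and -0.78 on the 3 scales (limma adjusted p = 0.00352, 0.0472 and 0.0239).

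Parp14, an ADP-ribosyltransferase and the gene with the longest transcript here (7417 bases), was 4.77, 6.88 and 6.16 FPKM with vehicle and 0.97, 2.85 and 0.62 with ONX-0914. Its groups did not overlap, and it fell as deposited (-1.58, limma adjusted p = 0.00703) and after median scaling (-1.04, adjusted p = 0.0345), and was at -0.69 after length correction (adjusted p = 0.0587). Rsad2, which encodes viperin, was 2.86, 2.64 and 1.81 FPKM with vehicle and 0.30, 0.57 and 0.27 with ONX-0914. It was lower in each treated library, the lowest of which corresponds to about 15.7 counted reads, with log2 fold changes of -1.31, -0.93 and -0.47 (limma adjusted p = 0.00255, 0.0136 and 0.0956). Ifi44 was 4.09 ± 1.13 FPKM with vehicle and 1.13 ± 0.655 with ONX-0914 (n = 3 each) and fell as deposited (-1.28), but not on the other scales (-0.77 and -0.55).

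Rtp4, a chaperone of membrane receptors that binds viral genomes, was 35.8, 43.4 and 25.6 FPKM with vehicle and 18.2, 24.3 and 13.1 with ONX-0914. Its fall of -0.89 as deposited (limma adjusted p = 0.0327) became -0.12 after median scaling and -0.43 after length correction. As deposited, the falls of Ddx58, Oasl1, Ifi44, Parp14, Trim30a and Lgals3bp passed whichever library was left out. Of these genes Ifi44, Parp14 and Trim30a would not have passed the filter on their treated values by themselves. The falls of Ifit2, Ifit3b and Rsad2 passed in each fit too, but these genes were tested through their vehicle values alone. Of the other 5 falls, Ifih1, Irf1 and Oasl2 passed only without ONX-0914 3, Rtp4 also without vehicle 4, and Ifit1 in every fit but the one without vehicle 2.

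Longer members tended to be lower with ONX-0914, with exceptions such as Oas2 (3961 bases, -0.18 as deposited) and Rtp4 (1859 bases, -0.89). Over the 30 tested genes, Pearson's r between log2 fold change as deposited and log10 transcript length was -0.68 (Spearman's rho -0.65), against -0.38 (rho -0.40) over the 10552 tested genes with a length. These describe genes that share the same 6 libraries, and genes are not independent replicates. The 10 shortest members, from 463 to 1977 bases, had a median log2 fold change of 0.12, against -0.20 for all genes of that length range. For the 10 of middle length, from 1989 to 2910 bases, it was -0.95 against -0.61, and for the 10 longest, from 2959 to 7417 bases, -1.19 against -0.85.

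After length correction r fell to -0.31 over the members and to 0.01 over all genes, and the medians of the 3 length classes were 0.10, -0.35 and -0.38, against 0.03, 0.02 and 0.01 for all genes of those ranges. The members went both ways within each class: after length correction 8 of the 10 shortest, 4 of the 10 middle and 4 of the 10 longest lay above the median of all genes of their length range. For a single gene, a change that goes with transcript length and one that goes with treatment cannot be told apart here.

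**Figure D3:**
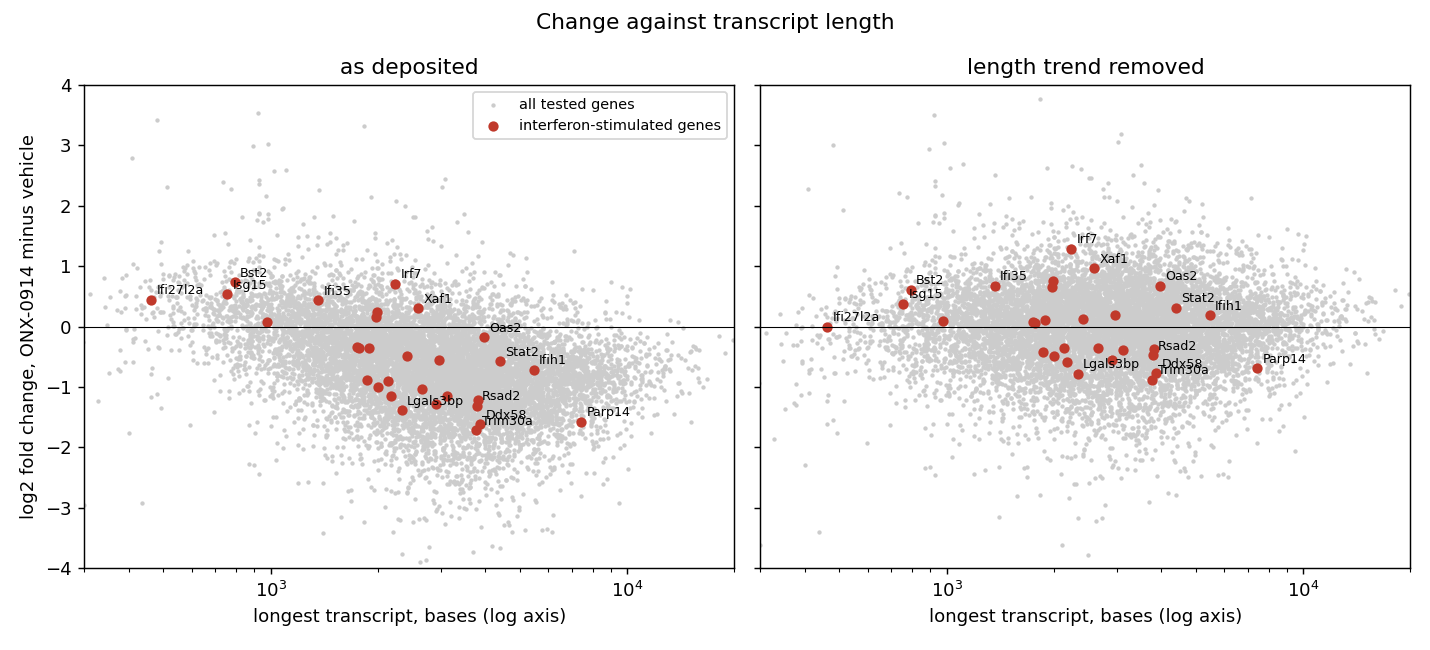
Log2 fold change, ONX-0914 minus vehicle, against the length of the longest transcript (log axis, bases), as deposited and after length correction, with red points for the 30 interferon-stimulated genes and grey points for all tested genes with a length. Short genes such as Bst2 (0.74) lie above long ones such as Parp14 (-1.58) as deposited, and on the right r over all genes is 0.01. The axes run from 300 to 20000 bases and from -4 to 4, and 14 and 12 genes outside them are not drawn.

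The treated libraries did not move alike. As deposited ONX-0914 1, 3 and 4 had medians over the 30 genes of -0.65, -0.43 and -0.75, and over all tested genes of -0.74, -0.38 and -0.79, so the family followed each library's own shift. ONX-0914 1, 3 and 4 lay below the whole vehicle range for 20, 19 and 19 of the 30 genes and above it for 7, 5 and 6. Over all tested genes 72.4%, 64.6% and 75.9% lay below it and 15.3%, 14.8% and 13.2% above. Without ONX-0914 3, 17 of the 30 genes fell and 5 rose, where 60.6% and 6.89% of all tested genes did. These 5 rises were among genes that in ONX-0914 1 and 4 lay above the vehicle values, such as Irf7 (1.03, limma adjusted p = 0.0023) and Ifi27l2a (1.05, adjusted p = 0.0097).

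**Figure D4:**
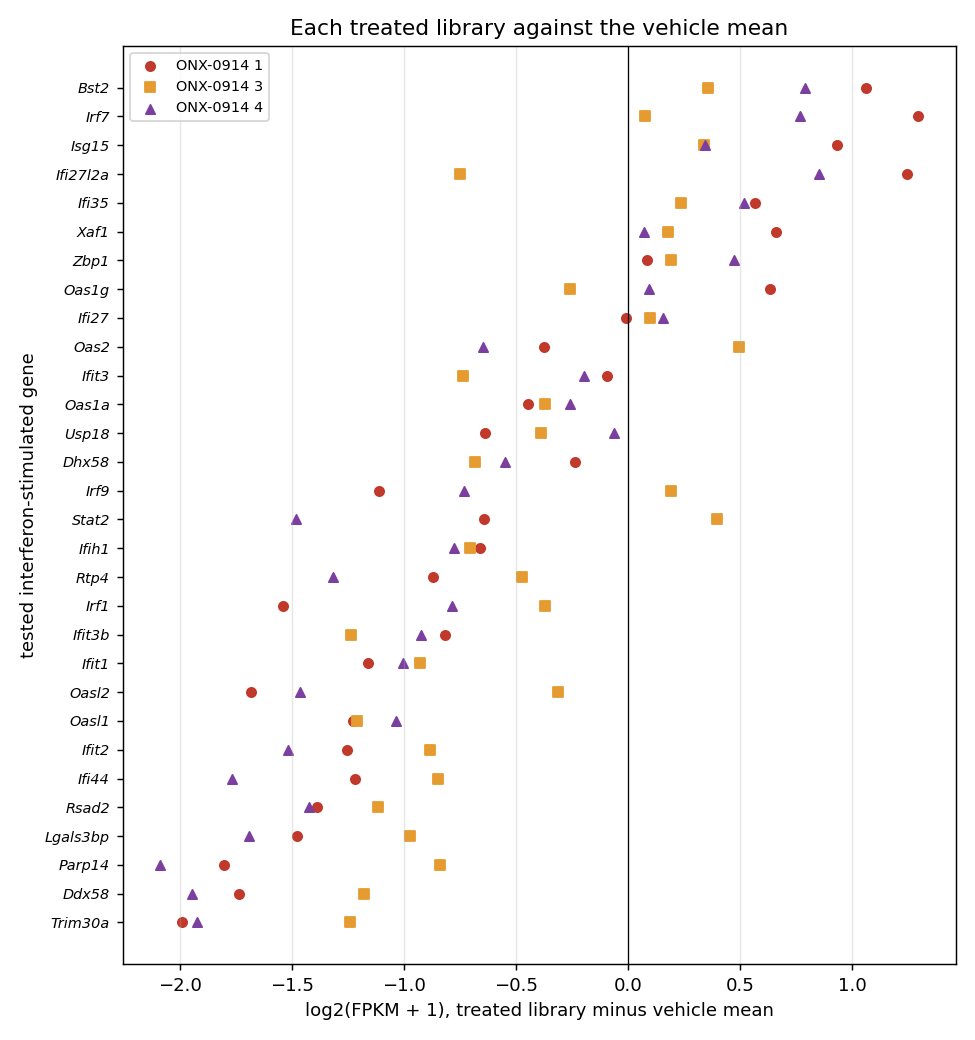
Difference of each treated library from the vehicle mean on the log2(FPKM + 1) scale, as deposited, for the 30 tested genes ordered by their log2 fold change. ONX-0914 3 lies on the other side of 0 from ONX-0914 1 and 4 for Ifi27l2a, Oas2, Irf9, Stat2 and Oas1g.

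No interferon transcript was seen at a level that could be tested. Of 21 interferon genes in the matrix (type I, II and III), 20 were listed at 0 in all 6 libraries, and Ifnl2 was at 0.11 FPKM in ONX-0914 1 and listed at 0 elsewhere. Of 16 tested genes of the receptors and their signalling, 11 fell and none rose as deposited, with a median of -0.94. On each of the other scales 2 fell and 1 rose, with medians of -0.28 and -0.19. Over all tested genes 43.5% fell and 2.56% rose as deposited, with a median of -0.64. On the other scales 14.2% and 11.7% of all tested genes fell, and 13.8% and 9.44% rose. Ifnar1, one receptor chain, was 9.27, 10.48 and 10.28 FPKM with vehicle and 1.61, 6.20 and 1.89 with ONX-0914, and Ifnar2, the other chain, was 53.3, 47.8 and 49.9 with vehicle and 77.1, 61.98 and 52.3 with ONX-0914.

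Ifnar1 fell as deposited (-1.54, limma adjusted p = 0.012) and was at -0.90 and -0.69 on the other scales (adjusted p = 0.0627 and 0.0951). Ifnar2 did not pass as deposited (0.32, limma adjusted p = 0.23) and was called higher on the other scales (1.107 and 1.07, adjusted p = 0.0171 and 0.0166). The treated values of Ifnar1 were all below the vehicle values, and those of Ifnar2 overlapped them in ONX-0914 4 only. Whether the chains differ from each other was not tested.

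Downstream of the receptor, the kinase genes Jak1 and Tyk2 fell as deposited (-1.46 and -1.12, limma adjusted p = 0.0112 and 0.00654), and neither passed on the other scales. Ptpn11, which encodes the phosphatase SHP2, was 11.04, 7.24 and 7.42 FPKM with vehicle and 0.67, 2.13 and 0.46 with ONX-0914 and was called lower on all 3 scales (-2.26, -1.73 and -1.35), as was Ifngr2, a chain of the interferon gamma receptor (-1.58, -0.86 and -0.75). Among treated libraries Ptpn11 was above 1 FPKM in ONX-0914 3 alone, so it was tested because of its vehicle values. Socs1, a feedback inhibitor of the kinases, was 0.11, 0 and 0.09 FPKM with vehicle and 0.93, 2.20 and 1.28 with ONX-0914, higher in each treated library, but did not pass the filter. Socs3, a second inhibitor, was highest in ONX-0914 3 at 18.5 FPKM and lowest in ONX-0914 1 at 3.42, and did not pass (0.46, limma adjusted p = 0.47).

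Of 20 tested genes that sense nucleic acids or relay that signal to interferon genes, 10 fell and none rose as deposited. After median scaling 3 fell and 1 rose, and after length correction 2 of 19 fell and 2 rose. The shares of all tested genes that fell were 43.5%, 14.2% and 11.7% on the 3 scales, and 2.56%, 13.8% and 9.44% rose. Traf6 and Trim25, ubiquitin ligases of this pathway, were called lower on all 3 scales (-1.59, -1.20 and -0.69 for Traf6, and -1.84, -1.20 and -0.94 for Trim25). Traf6 was above 1 FPKM in the vehicle libraries alone, so it passed the filter through them and its fall was built into the choice. Mavs, the mitochondrial adaptor of RIG-I and MDA5, was 29.3, 22.5 and 24.8 FPKM with vehicle and 2.46, 14.0 and 8.02 with ONX-0914. It fell as deposited (-1.76, limma adjusted p = 0.0147) but not on the other scales (-1.04 and -1.01, adjusted p = 0.0969 and 0.101). Irf3, the factor that Mavs signalling activates, did not pass as deposited (0.16, limma adjusted p = 0.517) and was called higher on the others (0.95 and 0.68, adjusted p = 0.0285 and 0.0485).

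Of 55 other tested interferon-stimulated genes, 26 fell and none rose as deposited, with a median of -0.73. After median scaling 6 fell and 5 rose, and after length correction 4 fell and 1 rose. These lists, too, are read against the 43.5%, 14.2% and 11.7% of all tested genes called lower on the 3 scales. The shares called higher were 2.56%, 13.8% and 9.44%. Parp12, an ADP-ribosyltransferase, was 19.3, 19.1 and 17.6 FPKM with vehicle and 2.30, 6.42 and 4.25 with ONX-0914, and was called lower on all 3 scales (-1.96, -1.26 and -1.18). Cmpk2, the neighbour of Rsad2 and a nucleotide kinase, fell as deposited and after median scaling (-1.27 and -0.86) and was at -0.50 after length correction (limma adjusted p = 0.141). Cmpk2 too passed the filter through the vehicle libraries alone. Of 14 tested interferon-inducible GTPase genes, 10, 3 and 1 fell on the 3 scales. Gbp2, a guanylate-binding protein gene, was 6.45, 3.55 and 3.10 FPKM with vehicle and 0.67, 1.01 and 0.71 with ONX-0914 and was called lower on each (-1.53, -1.03 and -0.88). Gbp2, too, was above 1 FPKM in ONX-0914 3 alone among treated libraries and was tested because of its vehicle values. Of the 6 genes of ISG15 conjugation, Trim25 alone fell as deposited.

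Each call of a member on the rescaled values was lost in at least 1 fit without a vehicle library, and none was lost without ONX-0914 3. After median scaling, the falls of Ddx58 and Trim30a did not pass when vehicle 1, 2 or 4 was left out, that of Lgals3bp passed only without ONX-0914 3, and the rise of Bst2 passed without ONX-0914 1 or 3 only. On that scale Isg15 also passed without ONX-0914 1 or 3 only, Ifi27, Ifit2 and Parp14 without ONX-0914 3 only, and Rsad2 in every fit but those without vehicle 1 or 2. After length correction, the fall of Trim30a did not pass when vehicle 1, 2 or 4 was left out, and those of Ddx58 and Lgals3bp passed without ONX-0914 1 or 3 only.

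Markers of the cells that make these genes were also fitted, and their part in the result was not tested. Over all tested genes 43.5%, 14.2% and 11.7% were called lower on the 3 scales, and 2.56%, 13.8% and 9.44% higher. The marker counts here and in the next paragraph are read against these shares. Hepatocyte markers were high in every library, with summed levels of 132129 to 136914 FPKM with vehicle and 129661 to 174749 with ONX-0914, and 3 of 19 rose and 4 fell as deposited. After median scaling 8 of them rose and after length correction 5, and by limma none fell on either scale (2 on each at an unadjusted p under 0.05). All 20 sinusoidal and vascular endothelial markers fell as deposited, and 15 and 14 did on the other scales. Their sum was 302 to 315 FPKM with vehicle and 51.7 to 92.6 with ONX-0914, and none was at 0 in every library. Of 16 tested Kupffer cell and macrophage markers 10, 4 and 7 fell on the 3 scales, and the sum was 2024 to 3144 FPKM with vehicle and 1070 to 1907 with ONX-0914. Of 14 stellate cell and fibroblast markers 10, 7 and 4 fell, with sums of 387 to 460 and 102 to 229 FPKM.

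The summed level of neutrophil and monocyte markers split the libraries rather than the groups. Their sum was 381, 323 and 1849 FPKM in vehicle 1, 2 and 4, against 2098, 200 and 4493 in ONX-0914 1, 3 and 4, so it was high in vehicle 4 and in ONX-0914 1 and 4. High genes weigh most in this sum, and the highest single value of the list was 2804 FPKM. As deposited 2 of the 12 tested markers fell and none rose. Their log2 fold changes as deposited were positive for 6 and negative for 6, with a median of 0.18. After median scaling and after length correction none of them was called, with medians of 0.86 and 0.31. As deposited without ONX-0914 3, 4 rose and 3 fell, where 6.89% and 60.6% of all tested genes did. T and NK cell markers (1 of 6 tested fell as deposited) summed to 17.0 to 20.9 FPKM with vehicle and 12.6 to 20.5 with ONX-0914. B and plasmacytoid dendritic cell markers (1 of 3 tested fell as deposited) summed to 14.6 to 18.5 and 10.1 to 13.6 FPKM. After median scaling 1 T and NK cell marker rose and 1 fell, and none was called after length correction. No B and plasmacytoid dendritic cell marker was called on either of these scales.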

How the data were processed

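RNA-seq was made from liver RNA of 3 vehicle and 3 ONX-0914 libraries (paired reads of 150 bases, per the series' design text). Values are FPKM per gene, computed by the authors and deposited as 1 matrix, written with 2 decimals. The submitters' processing notes name HISAT2 2.0.1 and featureCounts 1.6.0 on GRCm38 (mm10), cutadapt, FastQC 0.11.5 and edgeR. Their settings, the FPKM lengths and strand handling are not given in the sources used here. Depth was estimated from the steps between low values and sets the precision of low genes.

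Genes above 1 FPKM in at least 3 libraries (10743) were tested on log2(FPKM + 1) with limma 3.58.1 in R 4.3.3 (two-sided, trended variance, Benjamini-Hochberg over all tested genes, adjusted p under 0.05), after tests on simulated data. The simulated libraries had a common spread, and the simulated length trend was the same in every treated library, unlike here. They therefore do not show how well the fit or the length correction suits these data. Median scaling and removal (length correction) of a loess trend (span 0.5) over the length of each gene's longest coding transcript in GENCODE M21, available for 98.2% of tested genes, were applied as alternatives, beside a pseudocount of 0.1, no filter, a replicate block and leaving out each library. Leaving out libraries on the rescaled values was added after seeing the data. All 31 members are named, with listed pathway genes of smallest adjusted p; 1 pathway gene is not reported here. The members and lists were chosen with earlier results of these data known, and so support nothing independently.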

Additional observations from a re-analysis of the deposited data

How the results depend on the processing

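As deposited 1 of the 30 tested genes rose and 14 fell. After median scaling 6 rose and 6 fell, and after length correction 4 rose and 3 fell. Over all tested genes 275 rose and 4673 fell as deposited, 1481 and 1528 after median scaling, and 996 and 1237 after length correction. The members' median log2 fold change was -0.56, 0.16 and 0.070 in that order. A pseudocount of 0.1 gave 1 higher and 13 lower, and no filter 1 and 12. Leaving out each library in turn gave 0 to 5 (without ONX-0914 3) members higher and 9 (without vehicle 2) to 17 lower, 92 to 740 and 2590 to 6514 of all genes, a median of -0.79 to -0.49 and an r with transcript length of -0.74 to -0.60. On the median scale it gave 0 to 10 higher (2 without ONX-0914 1) and 0 to 8 lower, and after length correction 0 to 5 and 0 to 4.

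Labels do not say that equal replicate numbers pair the libraries, and the deviations of same-numbered libraries correlated at 0.0011 (number 1) and 0.13 (number 4). A replicate block takes its effect only from the libraries numbered 1 and 4, which both groups hold. The library of each group without a same-numbered partner dropped out of the estimate. The block gave 4 members higher and 16 lower, a median of -0.76, and 604 genes higher and 5973 lower in all. With it Stat2 (-1.05), Irf9 (-0.90), Irf7 (1.08), Ifi35 (0.69) and Ifi27l2a (1.10) also passed, at limma adjusted p of 0.01, 0.0147, 0.00501, 0.0275 and 0.0115. The treated library that dropped out was the one that stood apart, and leaving it out by itself also gave these calls. They therefore say little about pairing. The block turned Ifit3 to 0.024 and Socs3 to -0.20.

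Signs that turned, after median scaling and after length correction, were those of Stat2 (0.13 and 0.31), Irf9 (0.19 and 0.19), Ifit3 (0.39 and 0.073), Oas1a (0.39 and 0.11), Oas2 (0.28 and 0.68), Usp18 (0.37 and 0.066), Ifih1 (0.016 and 0.19) and Dhx58 (0.21 and 0.13). Leaving out each library, Oas1g ranged from -0.082 (without ONX-0914 1) to 0.36, Oas2 from -0.51 to 0.060 (without ONX-0914 4), Zbp1 from -0.082 (without vehicle 1) to 0.43 and Socs3 from -0.074 (without ONX-0914 3) to 0.997. Of these, Ifih1 alone was called as deposited. The cause was not tested. Genes near 1 FPKM, such as Ifit2 and Oas3, rest on few reads.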
